A study of Homo sapiens with 77 samples.

Results

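A set of 81 genes named as cytosolic ribosomal proteins was followed through the RNA-seq of lymphoma cell lines treated with inhibitors of menin or of EZH2. The set keeps paralogs such as RPL10L and RPL3L and leaves out ribosome genes with other names, such as FAU and RACK1. Members were chosen by name, from the genes listed in both deposited count tables: RPL or RPS followed by digits and at most one of the letters A, L or X, together with RPLP0, RPLP1, RPLP2 and RPSA, with pseudogene names left out. This gave 49 genes of the large subunit (RPL) and 32 of the small subunit (RPS and RPSA), out of 35813 genes in the first table and 21455 in the second, of which 19809 were listed in both. The series holds 77 samples, of which the 32 RNA-seq libraries were used here, in 16 conditions of 2 libraries each.

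In the first experiment, KARPAS422, DB, Farage and SUDHL5 cells were given the menin inhibitor MI-503 at 800 nM or the solvent DMSO for 3 days. In the second experiment, KARPAS422 cells were left as controls or given the menin inhibitor VTP50469 at 330 nM, the EZH2 inhibitor EPZ-6438 at 1 µM, or both, for 48 hours, and SuDHL10 cells were given the same for 24 hours. All are established lines of diffuse large B-cell lymphoma, and the study describes KARPAS422, DB and SuDHL10 as carrying mutant EZH2 and Farage as carrying the normal gene. Each line is a single model, so a difference between lines cannot be told apart from a difference tied to EZH2 status. The 7 B-cell markers checked were all above 1 CPM (counts per 1000000 counts of a library) in every library of the first experiment, summing to 3102 to 3852 CPM.

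Ribosomal proteins assemble with ribosomal RNA into a small subunit, which decodes mRNA, and a large subunit, which joins amino acids. Dividing cells make nearly equal amounts of each protein, and many of their mRNAs begin with a run of pyrimidines, the 5′ terminal oligopyrimidine (TOP) motif, through which mTOR and LARP1 control their translation. Loss of 1 copy of any of several of these genes causes Diamond-Blackfan anaemia, and free RPL5 and RPL11, carried with 5S ribosomal RNA, bind MDM2 when ribosome assembly fails.

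The letters at the start site are a feature these genes share that the choice by name did not use. A promoter entry from RefSeq (GRCh38.p14) was found for 64 of the 81 members, and in 42 (65.6%) the start base opened a run of at least 5 bases made of C and T only that begins with C, read on the gene's strand only. The same run stood at the start of 4.04% of 27305 promoters of all genes, of 5.28% of the promoters of 8345 other genes expressed at 5 CPM or more, and of 7.14% of those of 70 mitochondrial ribosomal protein genes. Allowing the run to begin within 3 bases of the start raised these shares to 73.4% of the members, 13.1% of all promoters, 14.5% of other expressed genes and 11.4% of the mitochondrial set. The windows below run from 10 bases before the start to 20 bases from it, read 5′ to 3′ on the gene's strand, with the pyrimidine run in capitals, and belong to members described further on. RPL12 lies at chr9:127451387-127451416 (minus strand), RPL38 at chr17:74203668-74203697 (plus), RPS25 at chr11:119018324-119018353 (minus), RPLP0 at chr12:120201092-120201121 (minus), RPLP1 at chr15:69452808-69452837 (plus), RPL3 at chr22:39319604-39319633 (minus), RPL26 at chr17:8383174-8383203 (minus) and RPS27 at chr1:153990752-153990781 (plus). RPL10 at chrX:154398055-154398084 (plus) and RPL11 at chr1:23691769-23691798 (plus) had no such run at the listed start, which says only that these letters are not there.
RPL12: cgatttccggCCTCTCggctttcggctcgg
RPL38: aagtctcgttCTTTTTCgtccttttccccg
RPS25: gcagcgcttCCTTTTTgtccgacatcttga
RPLP0: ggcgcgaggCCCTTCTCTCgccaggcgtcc
RPLP1: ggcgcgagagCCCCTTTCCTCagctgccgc
RPL3: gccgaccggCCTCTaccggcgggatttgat
RPL26: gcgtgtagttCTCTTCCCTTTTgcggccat
RPS27: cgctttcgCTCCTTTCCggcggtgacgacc
RPL10: ccactctcagaaatatacgtctgtcacagt
RPL11: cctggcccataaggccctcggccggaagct

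Library totals ran from 13034958 to 54883332 counts in the MI-503 experiment and from 8956156 to 31573027 in the combination experiment. In DB the depth moved with treatment, from 14695930 and 15474692 counts with DMSO to 52236459 and 46170498 with MI-503. A pair of libraries stood apart from their partners by genes of other cell types. Farage MI-503 replicate 1 held epithelial markers at a summed 102 CPM against 14.4 to 21.6 in the other Farage libraries, together with erythroid markers at 25.9 CPM (at most 0.137 in the others) and fibroblast markers at 10.6 CPM (at most 0.879). KARPAS422 both drugs replicate 2 had 8 of 13 epithelial markers above 1 CPM, at a summed 79.6 CPM, and fibroblast markers at 5.22 CPM against 0.686 in replicate 1. In DB the epithelial markers also moved with treatment, from 21.8 and 20 CPM with DMSO to 36.1 and 36.7 with MI-503, and their part in the changes in DB was not tested. Counts of members and of some related gene lists are also given without Farage MI-503 replicate 1 or KARPAS422 both drugs replicate 2. These lists were recounted after the markers had been seen.

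The count tables treated some members very differently. In KARPAS422 without drug, RPS18 averaged 1783 CPM in the MI-503 table and 0 in the combination table, RPL17 1323 and 0, RPL32 870 and 0, RPL15 853 and 0, RPS4X 844 and 0, and RPL35A 374 and 0. RPL36A (439 and 0.055 CPM), RPL5 (995 and 4.16 CPM) and RPS9 (592 and 0.375 CPM) were near 0 in the combination table alone. RPL41 (2087 and 156 CPM), RPS3A (1317 and 235 CPM), RPS15A (571 and 154 CPM) and RPS23 (782 and 274 CPM) were far lower there. RPS27 went the other way, from 7.78 CPM in the MI-503 table to 457 CPM in the combination table. In both count tables, a set of 64 members stood above 100 CPM, and the Pearson correlation of their log2 CPM was 0.624, across genes that share libraries and are not replicates. The 13 genes encoded in mitochondrial DNA were also all listed at 0 in the 16 combination libraries and had counts in the MI-503 table. The cause was not tested, so a zero in the combination table was not read as a silent gene, and shares of reads were not compared across tables.

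**Figure D1:**
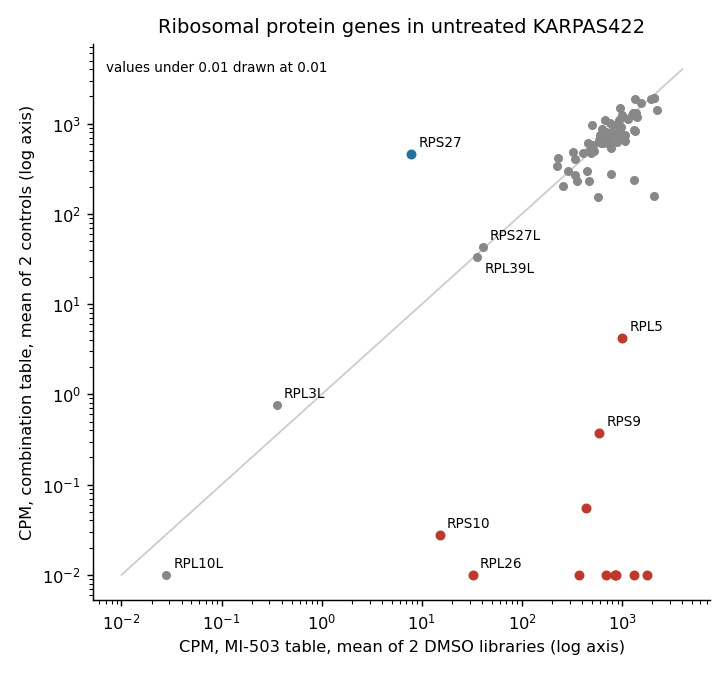
Mean level of each member in untreated KARPAS422 cells, in CPM on logarithmic axes, in the MI-503 table against the combination table, with 1 point per gene and values under 0.01 drawn at 0.01. Most members lie near the diagonal, while RPS18, RPL17 and RPL32 are at 0 in the combination table and RPS27 rises from 7.78 to 457 CPM.

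The number of near-copies differs among the members with such values. Within the gene annotation of hg38, 49 annotated pseudogenes carry the name of RPL17, 52 that of RPL36A, 36 that of RPL32 and 30 that of RPS27. RPL26 has 17, RPS10 has 14, RPS18 has 6 and RPS9 has 1. Some members with more copies had similar levels in both tables in untreated KARPAS422. RPL23A, with 91, stood at 601 and 756 CPM, and RPL7A, with 80, at 1406 and 1185 CPM. RPS27L, with 0, stood at 40.6 and 42.7 CPM. Of the exon bases of RPS10, 31.5% are shared with the read-through gene RPS10-NUDT3, and 24.9% of those of RPL17 with RPL17-C18orf32. The sources used here do not say how reads with several matches were counted, so the levels of these genes are uncertain in both tables.

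Levels were compared between genes per kilobase of exon (RPKM), counting the exons of all annotated transcripts of a gene. That length was 8825 bases for RPS27L, 1108 for RPL41 and 639 for RPS12, so the ranks depend on the annotation. Per library total, RPS27L averaged 56.5 CPM and RPL26 22.4 CPM over the 16 libraries of the MI-503 experiment. In the DMSO libraries of the MI-503 experiment, RPL41, the shortest protein of the large subunit, had the highest mean level at 1597 RPKM. RPS12 (1150), RPS2 (1130) and RPS18 (995) were also near the top. As given above, RPL41 was far lower in the combination table, so its rank holds for the MI-503 table alone. At the other end stood the tissue-restricted paralogs RPL10L (0.0257 RPKM), known from testis, and RPL3L (0.135 RPKM), known from striated muscle, then RPS10 (5.28), the paralog RPS27L (6.11), a p53 target, and RPL26 (10.4). RPS10, RPL26 and RPS27 (12.3 RPKM) encode core proteins of the ribosome and were listed low in this table.

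The share of all counts taken by the 81 genes differed between lines and rose with MI-503. With DMSO the share was 6.30% and 6.34% in KARPAS422, 8.99% and 8.97% in DB, 8.99% and 9.08% in Farage, and 8.56% and 8.67% in SUDHL5. KARPAS422 was the lowest of the 4 lines, and the values of DB and Farage were nearly equal. An exact permutation test over the 8 libraries gave a two-sided p of 0.009524, the smallest its 2520 arrangements allow. The labels do not say that replicates came from separate cultures, so this and the p-values that follow measure the spread between libraries, which may be technical. In bulk RNA, a share also cannot tell more of these mRNAs from less of the other RNA in a cell.

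With MI-503 the share was 7.11% and 7.10% in KARPAS422, 10.4% and 10.2% in DB, 9.49% and 9.85% in Farage, and 9.31% and 9.0% in SUDHL5. In each line both treated libraries lay above both DMSO libraries. The mean rise was 0.14 on the log2 scale, or 10.1%, with an exact permutation p of 0.001543 (two-sided, labels exchanged within lines), the smallest its 1296 arrangements allow. After TMM normalization the mean rise was 0.10 log2 (exact permutation p = 0.003086), and Farage MI-503 replicate 1 then lay between the DMSO libraries of its line. By line the treated share was 1.15 times that with DMSO in DB, 1.12 times in KARPAS422, 1.07 times in Farage and 1.06 times in SUDHL5. Genes encoded in mitochondrial DNA moved beside it, from a mean 3.74% to 4.40% of counts in KARPAS422 and from 9.23% to 8.80% in DB. In Farage they moved from 7.0% to 7.27% and in SUDHL5 from 8.5% to 9.0%. With these genes left out of the library totals, the mean rise was 0.1425 log2 (exact permutation p = 0.001543).

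In the combination experiment the test of the share over both lines could not pass at p below 0.05 for any drug, whatever the values. KARPAS422 controls held 4.94% and 5.28%, against 5.72% and 5.53% with VTP50469, 4.86% and 4.86% with EPZ-6438, and 4.67% and 5.40% with both. SuDHL10 controls held 7.6% and 6.61%, against 7.17% and 6.53%, 7.98% and 7.15%, and 7.81% and 7.93% in the same order. The mean share with VTP50469 was 1.10 times the control in KARPAS422 and 0.96 times in SuDHL10. It was 0.95 and 1.06 times with EPZ-6438, and 0.98 and 1.11 times with both drugs, so the lines moved in opposite directions. The control libraries of SuDHL10 alone differed by about as much as any treatment, and in KARPAS422 the pair given both drugs spanned the controls. Over both lines the exact permutation p was 0.611 for VTP50469 (0.043 log2), 1 for EPZ-6438 (0.0088 log2) and 0.5 for both drugs (0.063 log2), in a design of 36 arrangements that cannot go below 0.05556. The signs depended on the scaling, since TMM-normalized CPM gave −0.029, −0.074 and −0.093 log2 in the same order. Without KARPAS422 both drugs replicate 2 the change with both drugs was 0.011 log2, and without replicate 1 it was 0.12.

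**Figure D2:**
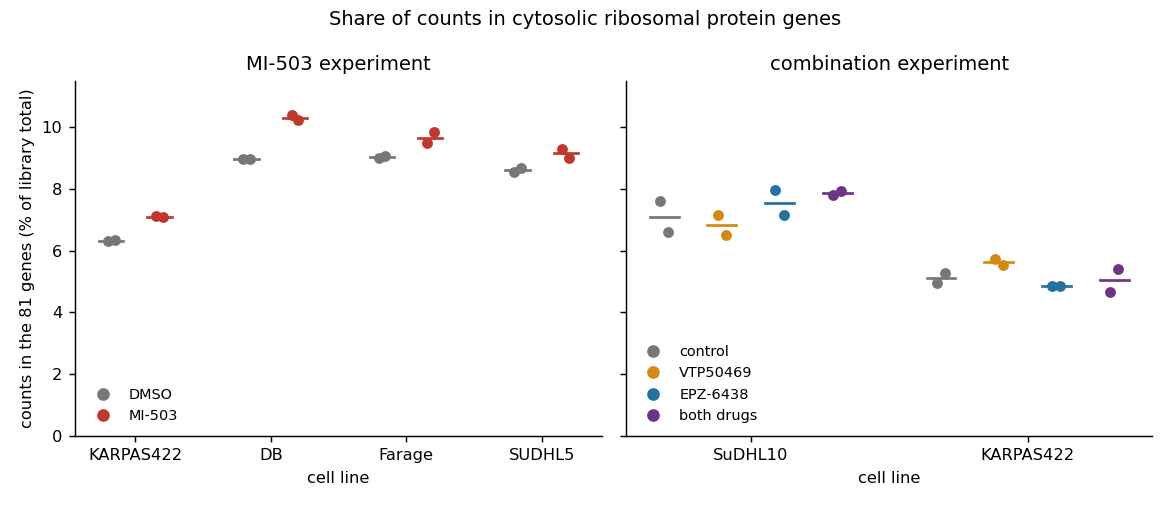
Share of all counts, in percent, taken by the 81 ribosomal protein genes in each of the 32 libraries, with 1 point per library and a bar at the mean of each pair, by line and treatment, in 1 panel per experiment. With MI-503 both libraries of each line lie above both DMSO libraries, and KARPAS422 is the lowest line in either experiment.

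The lines differed gene by gene without drug. Each line of the MI-503 experiment was compared with the mean of the other 3 by the edgeR quasi-likelihood test with Benjamini-Hochberg adjustment over all genes tested, at an adjusted p below 0.1, and these comparisons share libraries. In KARPAS422, 68 of 79 members tested were lower and 7 higher, where 37.3% of all genes tested were called lower and 43.9% higher, and the members' median was −0.56 log2. In Farage 65 were higher and 8 lower (40.8% and 38.5% of all genes), with a median of 0.34. In SUDHL5 55 were higher and 14 lower (42.0% and 37.0%), with a median of 0.16, and in DB 44 were higher and 28 lower (41.5% and 40.6%), with a median of 0.10.

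Among the small subunit genes, RPS25, which takes part in initiation at internal entry sites, spread most widely. It stood at 236 and 229 CPM in KARPAS422, 532 and 548 in SUDHL5, 990 and 1049 in Farage, and 1390 and 1461 in DB. The lines did not overlap, with DB highest and KARPAS422 lowest, and the difference from the other lines was −1.99 ± 0.03 log2 (SE) for KARPAS422 and 1.5 ± 0.03 for DB. RPS26, whose loss causes Diamond-Blackfan anaemia, was at 266 and 266 CPM in KARPAS422, 392 and 381 in DB, 136 and 140 in Farage, and 108 and 105 in SUDHL5. Against the other lines this was 0.58 and 1.29 log2 in KARPAS422 and DB, and −0.69 and −1.18 in Farage and SUDHL5.

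In the large subunit, the stalk protein RPLP1, which helps recruit elongation factors, stood at 523 and 549 CPM in KARPAS422 against 1156 and 1142 in DB, 1676 and 1701 in Farage, and 1329 and 1296 in SUDHL5. KARPAS422 lay below the other lines by 1.35 log2 (−1.35), and the median of the stalk genes there was −1.17. RPL10, which completes the late large subunit, stood at 673 and 676 CPM in KARPAS422, 2289 and 2233 in DB, 1509 and 1510 in Farage, and 1300 and 1255 in SUDHL5, a difference of −1.28 for KARPAS422. RPL10 shares 35.9% of its exon bases with DNASE1L1, so its count is uncertain.

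Paralogs outside the standard set also varied between lines. RPL39L, a paralog of RPL39, was at 8.53 and 10.5 CPM in Farage against 32.6 and 32.7 in KARPAS422, 53.9 and 53.5 in DB, and 55.6 and 59.8 in SUDHL5, or −2.28 ± 0.08 log2 (SE) for Farage. RPS27L was highest in SUDHL5, at 105 and 116 CPM (1.71 log2), and 1.65 log2 below the other lines in DB (−1.65). Farage was the lowest line for the first paralog and SUDHL5 the highest for the second, in each case with no overlap.

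Further members with large called differences were spread over both subunits. KARPAS422 was higher for RPL29 (0.35), RPS10 (0.31) and RPL26 (0.30) and lower for RPS6 (−1.21), the substrate of the mTOR-driven S6 kinases. DB was higher for RPS21 (1.13) and RPS27 (1.12) and lower for RPL35 (−1.15), RPS10 (−1.14) and RPL24 (−0.98). Farage was higher for RPLP1 (0.86), RPL21 (0.86), RPS25 (0.86) and RPSA (0.83) and lower for RPL30 (−0.28). SUDHL5 was higher for RPL39L (1.16), RPL15 (0.98) and RPSA (0.95) and lower for RPL17 (−0.93), RPL23 (−0.80) and RPL22 (−0.74).

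Some of these differences moved with the chromosome region. For each member the median difference of the other genes tested within 5 Mb was taken as a neighbour value, and the Pearson correlation between members and neighbours over 79 genes was 0.59 in DB, 0.39 in SUDHL5, 0.37 in KARPAS422 and 0.14 in Farage. Members that lie close to each other share neighbours, so this is a description. The neighbours of RPS25 differed by −0.96 in KARPAS422 and 0.80 in DB, the same signs as RPS25. Of the 8 members on chromosome 3, 2 were higher and 6 lower in DB, with a median of −0.90 beside −0.61 for the 737 other genes there, and all 8 were higher in SUDHL5, with a median of 0.85 beside 0.22. The neighbours of RPSA and RPL32 stood at −1.0 and −0.95 in DB. Neighbours of RPS26 stayed between −0.10 and 0.25 in the 4 lines, and those of RPL39L were at −0.08 in Farage, against differences of up to 1.29 for RPS26 and of −2.28 for RPL39L. DNA copy number was not measured here, and its part was not tested.

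**Figure D3:**
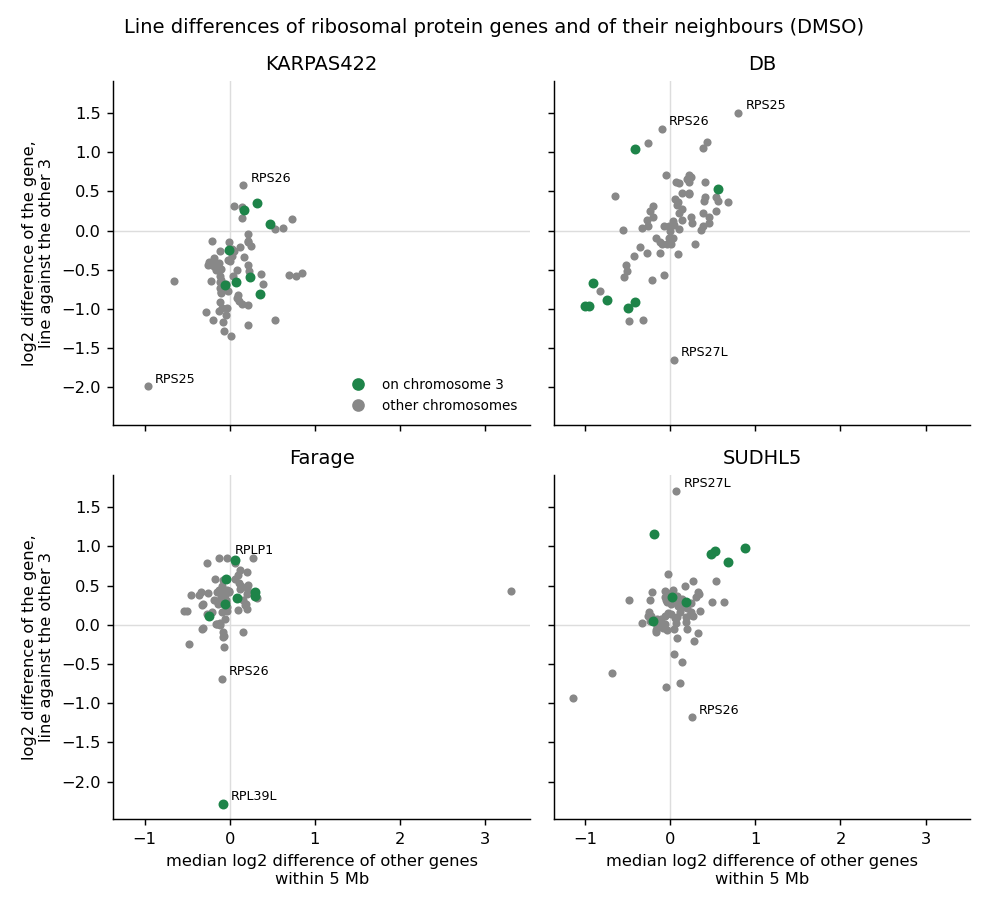
Difference of each member from the other lines with DMSO (log2, vertical axis) against the median difference of the other genes within 5 Mb (log2, horizontal axis), 1 panel per line and 1 point per gene, with the members on chromosome 3 in green. Most points of KARPAS422 lie below 0, and in DB the members with neighbours near −1.0 are low as well.

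Against KARPAS422, the controls of SuDHL10 in the combination experiment were higher for 61 of 70 members tested and lower for 0, where 26.0% of all genes were called higher and 32.9% lower. The members' median was 0.59 log2 beside −0.18 for all genes. RPL10 was at 3769 and 3237 CPM in SuDHL10 and 557 and 627 in KARPAS422 (2.56 ± 0.11 log2, SE), RPS25 at 892 and 887 against 213 and 189 (2.15), and RPLP1 at 1882 and 1431 against 605 and 705 (1.34). None of the 3 genes overlapped between the lines. KARPAS422 had the lower value of these genes in both tables.

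MI-503 raised many members by a little. In KARPAS422 57 of 80 members tested were higher and 3 lower, where 25.5% of all genes were called higher and 26.3% lower. In DB 66 of 80 were higher and 3 lower (34.5% and 34.7% of all genes), in SUDHL5 31 of 80 were higher and 8 lower (26.3% and 28.7%), and in Farage 11 of 79 were higher and 3 lower (12.3% and 14.7%). The members' medians were 0.14, 0.14, 0.05 and 0.05 log2 in KARPAS422, DB, Farage and SUDHL5, beside 0.01, 0.02, 0.01 and −0.00 for all genes. Both treated libraries lay above both DMSO libraries for 63, 69, 36 and 39 members in that order, beside 36.5%, 42.1%, 30.3% and 36.3% of all genes tested. With library totals alone in Farage, 43 members were higher and 3 lower. Thinning the libraries of a line to equal totals, an alternative added after the depths were seen, gave 71 members higher and 3 lower in DB. In Farage the number higher was 38 without MI-503 replicate 1, the library with epithelial markers, and 7 without MI-503 replicate 2, and leaving out the DMSO libraries in turn gave 1 (replicate 1) and 3 (replicate 2). For SUDHL5 it fell to 17 when DMSO replicate 1 was left out and to 18 when MI-503 replicate 1 was.

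**Figure D4:**
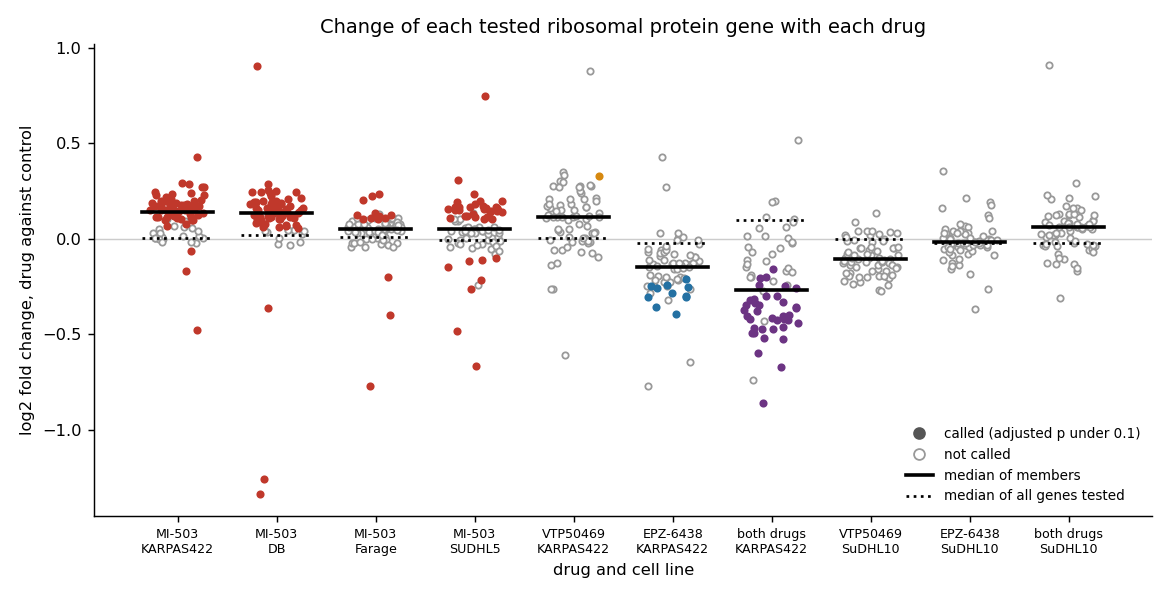
Change of each member with drug (log2, vertical axis) in each of the 10 drug comparisons, with 1 point per gene, the members that passed the test as filled points, the members' median as a solid line and that of all genes tested as a dotted line, after TMM normalization. The points of KARPAS422 and DB with MI-503 lie mostly just above 0, and those of KARPAS422 with both drugs mostly below it, where library totals alone gave 12 members higher and 12 lower.

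Of the large subunit genes, 34 of 48 were higher in KARPAS422, 40 in DB, 21 in SUDHL5, and 7 of 47 in Farage. Of the 32 small subunit genes, 23, 26, 10 and 4 were higher in the same order. All genes were called higher at 25.5% in KARPAS422, 34.5% in DB, 26.3% in SUDHL5 and 12.3% in Farage, and the shares of either subunit in Farage lay near that background. Of members with a promoter entry, those with the pyrimidine run within 3 bases of the start and those without it had similar medians in KARPAS422 (0.15 and 0.15). The medians were 0.14 and 0.13 in DB, 0.05 and 0.05 in Farage, and 0.10 and 0.05 in SUDHL5. The 17 members with no promoter entry had medians of 0.10, 0.12, 0.07 and 0.04 in KARPAS422, DB, Farage and SUDHL5. Of 20 members known for Diamond-Blackfan anaemia, 14, 15, 4 and 9 were higher and 2, 2, 3 and 4 lower in KARPAS422, DB, Farage and SUDHL5. Without Farage MI-503 replicate 1, 8 of them were higher and 3 lower in Farage.

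Over the lines, 3 members, RPL17, RPL27 and RPL35A, were higher in all 4, beside 2.93% of the 11423 genes tested in 4 lines. A further 28 were higher in 3 lines, 26 in 2, 17 in 1, and 7 in none (RPL10L, RPL23A, RPL26, RPL3L, RPS10, RPS27A and RPS7). Shares of all genes were not counted for 3 lines or fewer, so these counts describe the members alone. RPL10L did not pass the filter on low counts in any line, and RPL3L not in Farage. The ubiquitin fusion gene RPS27A moved by 0.04 log2 in DB, 0.00 in KARPAS422, −0.04 in Farage and −0.04 in SUDHL5.

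The largest single rises sat in RPS27, which was listed low in the MI-503 table. In DB it stood at 41.3 and 41.4 CPM with MI-503 against 21.1 and 23.0 with DMSO, a change of 0.91 ± 0.06 log2 (SE, n = 2 per group, edgeR adjusted p = 1.31e-07). It was at 14.4 and 14.8 against 8.64 and 8.82 CPM in SUDHL5 (0.75) and at 10.8 and 9.72 against 7.14 and 8.24 CPM in KARPAS422 (0.43). In Farage it was at 12.9 and 14.1 against 12.8 and 12.9 CPM, and the groups overlapped. Among abundant members, RPL12, part of the stalk base, stood at 1272 and 1322 CPM against 1061 and 1059 in KARPAS422 (0.29 ± 0.03 log2, SE), and RPL11 at 1035 and 987 against 824 and 809 CPM in SUDHL5 (0.31 ± 0.04, SE). In both lines the treated libraries lay above the DMSO libraries. RPL38, whose loss in mice alters the axial skeleton, stood at 450.3 and 450.4 CPM against 371 and 367 in DB (0.29 ± 0.03, SE) and was also among the largest rises in KARPAS422 (0.27). The other largest called rises included RPL36 (0.29) and RPS3 (0.27) in KARPAS422, RPL37A (0.26), RPL28 (0.25) and RPS28 (0.25) in DB, and RPL29 (0.20) and RPL32 (0.20) in SUDHL5. In Farage they were RPL36A (0.23), RPS27L (0.23), RPS2 (0.20), RPL27 (0.14) and RPL35A (0.12), and each of these 5 was also called without Farage MI-503 replicate 1.

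Stalk and 5S particle genes did not move as blocks. RPLP0 rose in DB (0.06) and SUDHL5 (0.17) and was at 0.06 and 0.07 in KARPAS422 and Farage, short of the test. RPLP2 rose in KARPAS422 (0.11) and DB (0.12), and RPLP1 in DB (0.17). RPL11 rose in KARPAS422 (0.16), DB (0.20) and SUDHL5 (0.31), whereas RPL5 rose in DB (0.12) and was at 0.01, 0.05 and 0.01 log2 in KARPAS422, Farage and SUDHL5. Among paralog pairs, RPL39 rose in KARPAS422 (0.19), DB (0.18) and SUDHL5 (0.19), while RPL39L rose in DB (0.12) and fell in SUDHL5 (−0.22).

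RPL26 and RPS10 fell in each of the 4 lines. RPL26, which binds p53 mRNA, was at 7.49 and 7.75 CPM with MI-503 against 19.0 and 19.5 with DMSO in DB (−1.34 ± 0.09 log2, SE, edgeR adjusted p = 7.18e-08). It stood at 24.4 and 22.9 against 31.1 and 30.8 in Farage (−0.40), and at 28.9 and 27.4 against 30.5 and 33.0 in KARPAS422 (−0.17), while in SUDHL5 it was at 16.2 and 15.7 against 21.4 and 23.3 (−0.48). The treated libraries of each line lay below those with DMSO. RPS10 was at 2.81 and 2.97 against 6.15 and 7.63 CPM in DB (−1.26), at 9.64 and 7.32 against 14.2 and 13.9 in Farage (−0.77), at 8.05 and 9.09 against 14 and 13.6 in SUDHL5 (−0.66), and at 12.2 and 8.54 against 13.8 and 15.9 in KARPAS422 (−0.48). The call of RPL26 in KARPAS422 was lost with library totals alone (−0.13, adjusted p = 0.103) and without DMSO replicate 2, MI-503 replicate 1 or MI-503 replicate 2, and that of RPS10 there without MI-503 replicate 2 (−0.29, adjusted p = 0.106). Both genes were listed low and have pseudogene copies or shared exons as given above, so the fall is one of the counts assigned to them. Other members lower in at least 1 line were RPL10, RPL10A, RPL23, RPL23A, RPL39L, RPS26, RPS27L and RPS29.

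The size of the response to MI-503 differed between lines for 19 of 80 members (23.8%), where 57.2% of all genes passed the same edgeR test of the line by drug term. RPL26 led (F = 44.4, adjusted p = 4.38e-07), followed by RPS27 (F = 11.8, adjusted p = 0.00072). RPS27L fell in DB (−0.36) and rose in Farage (0.23) and KARPAS422 (0.14). RPS26 rose in KARPAS422 and DB (0.20 in each) and fell in Farage (−0.20) and SUDHL5 (−0.15). RPL23A, which docks the signal recognition particle, was at 542 and 565 CPM with MI-503 against 666 and 662 with DMSO in SUDHL5 (−0.26) and moved by 0.01, −0.03 and −0.04 in KARPAS422, DB and Farage. With library totals alone 60 members passed and with RLE size factors 48. The count of 19 ran from 5 without DB DMSO replicate 2 to 59 without Farage MI-503 replicate 2, and was 40 without Farage MI-503 replicate 1.

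In the combination experiment the 3 treatments of a line share the same control libraries. In either line 70 members passed the filter on low counts, and 11 did not, among them RPL10L, RPL15, RPL17, RPL26, RPL32, RPL35A, RPL36A, RPS10, RPS18 and RPS4X. VTP50469 in KARPAS422 gave 1 member higher and 0 lower, where 3.18% of all genes were called higher and 0.197% lower. The members' median was 0.11, and scaling by library totals alone called 0 higher and 1 lower. The number higher was 0 without any one of the 6 other KARPAS422 libraries, 7 without both drugs replicate 1 and 6 without both drugs replicate 2. MI-503, also a menin inhibitor, differed in dose and time, and its counts in KARPAS422 were 57 higher and 3 lower.

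With EPZ-6438 in KARPAS422, 11 of 70 members (15.7%) were called, all of them lower, where 18.3% of all genes were called in either direction. That share counts rises too, so it is no measure of falls alone. The median was −0.15 log2 beside −0.02 for all genes. RPLP2 stood at 500 and 495 CPM against 615 and 660 (−0.36 ± 0.10 log2, SE, edgeR adjusted p = 0.062), and RPS27A (−0.31), RPL18 (−0.30), RPS16 (−0.30), RPLP0 (−0.28) and RPL3 (−0.24) were also lower. In 51 members both treated libraries lay below both controls, beside 29.7% of all genes tested. The calls depended on single libraries: the number lower was 0, 1 or 2 without any one of 6 libraries, and 17 or 27 without KARPAS422 both drugs replicate 1 or 2. With library totals alone 1 member was lower.

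Both drugs together lowered 38 of 70 members in KARPAS422 and raised 0, where 25.2% of all genes were called lower and 23.5% higher. The members' median was −0.27 log2, while that of all genes was 0.10, so relative to it the members stood at −0.37. Of the large subunit genes 22 of 42 fell, and of the small subunit genes 16 of 28. RPS27A was at 370 and 332 CPM against 654 and 620 (−0.86 ± 0.09 log2, SE, edgeR adjusted p = 0.00086), RPLP0 at 855 and 867 against 1315 and 1424 (−0.67 ± 0.08), and RPS7, which can bind MDM2, at 466 and 392 against 692 and 606 (−0.60 ± 0.11). RPL3, which lies near the peptidyl transferase centre, was at 1394 and 1422 CPM against 1911 and 2139 (−0.52), and RPL4 at 1486 and 1295 against 2032 and 1958 (−0.52). In each of these 5 genes both treated libraries lay below both controls, which was so for 50 members in all, beside 31.5% of all genes tested.

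Other members did not pass the test with both drugs, among them RPL11 (0.00 log2), RPL39 (0.01), RPS25 (−0.12), RPLP1 (−0.17) and RPS27 (0.19). The stalk genes gave different calls, with RPLP0 and RPLP2 (−0.36) lower and RPLP1 not called. Members with the pyrimidine run within 3 bases of the start had a median of −0.28. Those with a promoter entry but no such run had −0.24, and those with no entry −0.32. Scaling by library totals alone, in place of TMM, gave 12 members higher and 12 lower with a median of −0.04. Without KARPAS422 both drugs replicate 2, the library with epithelial markers, 34 members were lower, and without replicate 1 it was 60. The members' median without replicate 2 was −0.26 beside −0.04 for all genes, or −0.23 relative to it, and the 5 genes with levels above were still called lower, at −0.81 for RPS27A, −0.71 for RPLP0, −0.51 for RPS7, −0.56 for RPL3 and −0.45 for RPL4. The number lower was 6 without VTP50469 replicate 1 and 6 without EPZ-6438 replicate 2.

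In SuDHL10, 0 of 70 members were called with EPZ-6438, VTP50469 or both drugs by the edgeR quasi-likelihood test, where 17.5%, 0.0% and 21.6% of all genes were called in either direction. At an unadjusted p under 0.05 there were 2, 0 and 1 members, and DESeq2 called 0 in each. A replicate block gave 1 higher and 3 lower with EPZ-6438 and 10 higher and 1 lower with both drugs, and a fit of the control and both drugs libraries alone gave 6 higher. The medians were −0.02, −0.10 and 0.06 log2. With both drugs RPLP0 stood at 2147 and 2099 CPM against 2255 and 1819 in the controls, and RPL3 at 2936 and 2863 against 2769 and 2179. The treated RPLP0 values lay between those of the controls, and those of RPL3 above them.

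The response to both drugs was lower in KARPAS422 than in SuDHL10 for 29 of 70 members and higher for 0, where 19.9% of all genes were called lower and 10.6% higher in the edgeR test of that difference, and the members' median was −0.37 log2. RPS27A differed by −0.79 (adjusted p = 0.00065), RPLP0 by −0.79 (adjusted p = 0.0037) and RPL3 by −0.82 (adjusted p = 0.0054). KARPAS422 was treated for 48 hours and SuDHL10 for 24 hours, so line and time cannot be told apart. Leaving out 1 library gave 6 (without SuDHL10 control replicate 2) to 28 members, and library totals alone gave 15.

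Genes that work with the ribosome were read from lists chosen by role. With MI-503, the shares of all genes called higher and lower were 25.5% and 26.3% in KARPAS422, 34.5% and 34.7% in DB, 12.3% and 14.7% in Farage, and 26.3% and 28.7% in SUDHL5, and with both drugs in KARPAS422 they were 23.5% and 25.2%. The counts of each list stand beside these shares. The 79 mitochondrial ribosomal protein genes, which build the separate ribosome of the organelle, had 10 higher and 35 lower with MI-503 in KARPAS422, 2 and 65 in DB, 3 and 7 in Farage, and 7 and 52 in SUDHL5. Their medians were −0.10, −0.32, −0.00 and −0.21 log2, while the medians of the cytosolic members were 0.14, 0.14, 0.05 and 0.05. With both drugs in KARPAS422, 57 of 66 of them fell and 0 rose, with a median of −0.74 beside −0.27 for the cytosolic members. Without KARPAS422 both drugs replicate 2 the number was again 57, with a median of −0.65. Without Farage MI-503 replicate 1, 4 were higher and 4 lower in Farage. In SuDHL10, 15 of 66 fell with EPZ-6438 and 8 of 66 with both drugs. Of all genes, 17.5% and 21.6% were called in either direction, shares that count rises too and so are no measure of falls alone.

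Of 14 genes that control TOP mRNAs, 11 were lower and 1 higher with MI-503 in KARPAS422, 10 and 2 in DB, 4 and 0 in Farage, and 9 and 5 in SUDHL5. LARP1, which binds the cap and pyrimidine run, fell in each line (−0.32, −0.27, −0.20 and −0.12). EIF4EBP1, an mTOR substrate that blocks cap-dependent initiation, fell by 1.14 on the log2 scale in KARPAS422. With both drugs in KARPAS422, 9 of the 14 were lower and 1 higher. LARP1 (−0.62) and MTOR (−0.45) fell there, and TSC1, part of an mTOR inhibitor complex, rose (0.76). Without KARPAS422 both drugs replicate 2 these were −0.46, −0.40 and 0.88 and were called again.

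Dedicated chaperones of ribosomal proteins fell or did not pass the test in most lines. With MI-503, of 7 genes, 4 were lower and 1 higher in KARPAS422, 6 and 0 in DB, 2 and 0 in Farage, and 5 and 0 in SUDHL5. GRWD1, which escorts RPL3, changed by −0.37, −0.88, −0.17 and −0.50. With both drugs in KARPAS422 all 7 were lower, among them BCCIP (−1.09), PDCD2L (−1.03) and GRWD1 (−0.88). Ribosome genes whose names fall outside the naming rule (such as FAU, RACK1, RPL36AL, RPL22L1, RPL26L1 and RPL7L1) were all lower there as well, among them RPL22L1 (−0.80). Without KARPAS422 both drugs replicate 2 the 7 chaperones were lower again, and 6 of the 7 genes outside the naming rule, RPL22L1 no longer passing (−0.52, edgeR adjusted p = 0.104). Without Farage MI-503 replicate 1, 0 of the chaperones were called in Farage, and GRWD1 was at −0.15 (adjusted p = 0.178).

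Translation factors were mixed with MI-503, with 10 of 22 higher and 6 lower in KARPAS422, 9 and 5 in DB, 3 and 1 in Farage, and 8 and 7 in SUDHL5. With both drugs in KARPAS422, 16 of 21 were lower and 0 higher, with a median of −0.48, among them NPM1 (−1.14), EIF3M (−0.95), EEF1B2 (−0.81) and HNRNPA1 (−0.81). Without KARPAS422 both drugs replicate 2, 15 were lower, with a median of −0.42, and these 4 genes were among them. Without Farage MI-503 replicate 1, 5 were higher and 1 lower in Farage. The snoRNA host SNHG32 was higher with MI-503 in KARPAS422 (0.32), DB (0.51), Farage (0.23) and SUDHL5 (0.18). Of the 2 snoRNA hosts tested in Farage, 1 was called higher. With both drugs in KARPAS422 the 1 host tested was lower (−0.69). Without both drugs replicate 2 its change was −0.40, and the call was lost.

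**Figure D5:**
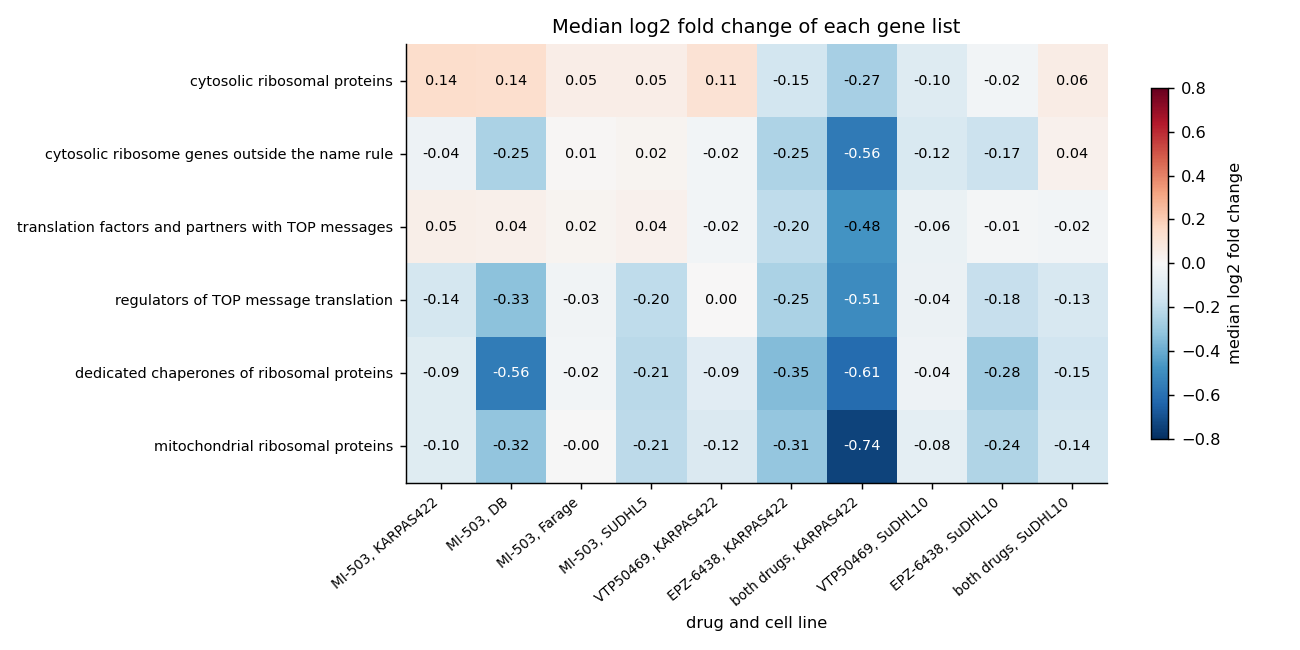
Median change with drug (log2) of the cytosolic ribosomal protein genes and of the related gene lists, without the snoRNA hosts. The coloured grid has 1 row per list and 1 column per drug comparison. With MI-503 in DB the cytosolic members are at 0.14 and the mitochondrial ribosomal protein genes at −0.32, and with both drugs in KARPAS422 the medians are −0.27 and −0.74.

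The members tracked each other across libraries to different degrees. In the 16 libraries of the MI-503 experiment, the median Pearson correlation of a member with the mean of the members was 0.783, and the lowest were RPL26 (−0.44), RPL41 (−0.40), RPS26 (−0.37) and RPS10 (−0.35). In the combination experiment the median was 0.957, and RPS27L (−0.12), RPL3L (0.04) and RPL39L (0.24) stood among the lowest. The libraries fall into 4 or 2 lines, so these values mostly describe differences between lines. The genes outside the set most like its mean were ACSL1 (0.986), INPP4A (0.983), DUSP22 (0.982), DIAPH2 (0.981) and TEC (0.981) in the first experiment and NUDT1 (0.995), LSM4 (0.995), RCCD1 (0.994), BCAP31 (0.993) and AARS (0.992) in the second.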

How the data were processed

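RNA was extracted with an AllPrep kit according to the labels and with Trizol according to the methods, and libraries were made after depletion of ribosomal RNA. Reads were aligned by the authors with HISAT2 (2.1.0) against hg38 and assigned to genes with featureCounts (1.6.1), so the values deposited by the authors are unnormalized counts. CASAVA (1.7) appears in the submitters' processing notes as well, without a stated role, and Picard (2.23.1) served to drop duplicates from chromatin libraries that were not used here. Strand use, annotation and the counting of reads with several matches have no entry in the sources used here. The deposited counts of guides in the CRISPR screen hold no member and were not used here.

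Counts were filtered with filterByExpr, normalized with TMM and tested with the edgeR (4.0.16) quasi-likelihood test in R (4.3.3), with Benjamini-Hochberg adjustment over all genes tested and a call at an adjusted p below 0.1. Each line was fitted by itself, with all its treatments, and lines with DMSO in a joint fit. Comparisons between KARPAS422 and SuDHL10, and the line by drug test of MI-503, each used a joint fit of all libraries of the experiment. CPM in comparisons are TMM-normalized, and those of markers, of both tables side by side and per kilobase are per library total. Errors of log2 changes were the size of the change divided by the square root of F. DESeq2 (1.42.0), RLE size factors, library totals alone, TMM without the members, no filter, 1 library left out and a replicate block were alternatives. Shares of counts were compared by exact permutation tests, two-sided, with pandas (2.3.3) and numpy (2.4.6) in Python (3.11.15). The scripts were tested on simulated counts.

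Members named for a drug comparison were up to 5 in each direction with the largest called change and a mean of at least 5 CPM, and up to 4 for a line comparison, besides the role lists, the members at the ends of the level range and those that did not pass a filter. RPS10 in DB and the members counted in few lines fall outside this rule and were chosen after their values were seen. The members and lists were chosen with earlier results of these data known. Neighbours were taken from GENCODE on hg38. Same-numbered libraries had correlated deviations of 0.156 to 0.848 in the combination experiment and of −0.157 to 0.0744 in the MI-503 experiment, and with 2 numbers they were not taken as pairs. Some members and listed genes that the rules would name are not reported here.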

Additional observations from a re-analysis of the deposited data

Results flagged for a closer look

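The response of 19 of 80 members to MI-503 differed between the 4 lines by the edgeR test of the line by drug term. Of all genes, 57.2% passed the same test. By that test RPL26 had F = 44.39, RPS27 11.8, RPS27L 11.06, RPS26 10.83 and RPL23A 5.746. The response of 29 of 70 members to both drugs was lower in KARPAS422 than in SuDHL10, where 19.9% of all genes were called lower. The differences were −0.7935 log2 for RPS27A, −0.5568 for RPS6, −0.6357 for RPSA, −0.7942 for RPLP0 and −0.5537 for RPL4. Lines and treatment times differ together in that comparison. A check for single libraries far from their group needs 4 libraries and was not possible with groups of 2.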

How the results depend on the processing

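Groups of 2 libraries limit every count given here, and leaving out 1 library leaves a group of 1 that is assumed to vary like the others. Over counts and shares, 188 alternative values stayed close to the reported ones and 45 moved, and with 1 library left out 249 stayed and 71 moved. Of the named genes, 558 values kept their call and 18 lost it, or 644 and 56 with 1 library left out, and none of these changed sign. Of the medians, 166 stayed and 44 moved, or 134 and 122 with 1 library left out. Without the filter, the median of the members relative to all genes turned from 0.11 to −0.04 log2 with MI-503 in DB, from 0.05 to −0.00 in Farage and from 0.0047 to −0.04 with EPZ-6438 in SuDHL10, where the median itself turned from −0.02 to 0.07 with library totals alone. With TMM-normalized CPM the summed share changed by −0.074 log2 for EPZ-6438, −0.029 for VTP50469 and −0.093 for both drugs.

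With library totals alone, 1 member was lower with MI-503 in KARPAS422, 43 were higher in Farage, 1 was lower with EPZ-6438 in KARPAS422, 0 were higher and 1 lower with VTP50469 there, and 12 were higher and 12 lower with both drugs. The same scaling gave 11 members higher in KARPAS422 with DMSO, 14 lower in Farage, 23 lower in SUDHL5, 1 lower in the SuDHL10 controls, 15 for the difference between KARPAS422 and SuDHL10, and 60 for the MI-503 difference between lines. RLE size factors gave 1 member higher with both drugs in KARPAS422, 19 for the difference between KARPAS422 and SuDHL10 and 48 for the MI-503 difference, and TMM without the members gave 16 for the former. Without the filter, 19 were higher in Farage, 0 were lower with EPZ-6438 and 0 higher with VTP50469 in KARPAS422, 1 was lower with EPZ-6438 and 2 higher with both drugs in SuDHL10, and the differences gave 9 and 9. DESeq2 called 17 higher in Farage, 25 lower with EPZ-6438, 12 higher and 1 lower with VTP50469 and 1 higher with both drugs in KARPAS422, and 56 for the MI-503 difference. With the compared groups alone, 21 members were lower with EPZ-6438, 2 higher with VTP50469 and 17 lower with both drugs in KARPAS422, and 6 higher with both drugs in SuDHL10. All 16 libraries in one fit gave 19 higher in Farage.

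The replicate block gave 21 higher with MI-503 in Farage, 4 lower with EPZ-6438 and 0 higher with VTP50469 in KARPAS422, 1 higher and 3 lower with EPZ-6438 in SuDHL10, and 10 higher and 1 lower with both drugs in SuDHL10. It moved no other count of members by over 1.5 times. The cause of these changes was not tested.

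With 1 library left out, the summed share changed by −0.042 to 0.060 log2 for EPZ-6438 and by −0.0079 to 0.094 for VTP50469. With MI-503, the members lower in KARPAS422 numbered 0 to 3, those higher in Farage 1 to 38 and lower 2 to 6, and those higher in SUDHL5 17 to 32 and lower 5 to 7. In KARPAS422, EPZ-6438 gave 0 to 27 lower, VTP50469 0 to 7 higher and 0 to 1 lower, and both drugs 6 to 60 lower. In SuDHL10, EPZ-6438 gave 0 to 3 higher and 0 to 1 lower, and both drugs 0 to 4 higher. The difference between KARPAS422 and SuDHL10 gave 6 to 28, and the MI-503 difference between lines 5 to 59.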
